A study of Homo sapiens with 12 samples.

Results

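The interferon-stimulated genes outside the MX and OAS families were followed in 786-O cells, an established human renal cancer line. The set held 52 genes, taken by symbol from a list, out of 17085 genes of the count table. The list was chosen with earlier results of these data known, so its counts against all genes are descriptive. All 52 were in the table, and all 52 were among the 12841 genes with enough reads to be tested. The cells were wild type and received vehicle (DMSO), everolimus, SGI-1027 or both drugs (the combination) for 24 h, with 3 libraries in each of 4 groups. Everolimus inhibits the kinase mTOR, and SGI-1027 inhibits DNA methyltransferases. The treatment labels give 5 µM everolimus, 1.5 µM SGI-1027 and, for the combination, both at these doses. The study's methods also give 5 µM everolimus, while the shared protocol text gives 10 µM for everolimus alone. This conflict between the sources was not resolved here. Only 1 cell line and 1 time were measured, and the labels do not state that replicates were cultured separately, so p-values measure only the spread between these libraries.

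Type I and type III interferons bind surface receptors and activate JAK kinases, which switch on transcription factors of the STAT family. A complex that includes STAT2 and IRF9 binds the interferon-stimulated response element (ISRE) in the promoters of interferon-stimulated genes. The products of these genes block virus entry, bind or degrade foreign RNA, tag proteins with the ubiquitin-like ISG15, modify proteins with ADP-ribose, or promote cell death. Type II interferon acts mainly through a different motif, the gamma-activated sequence (GAS).

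The promoters are shown because the ISRE is the feature these genes are known to share and because the set was not chosen by it. RefSeq promoter windows on GRCh38.p14, each from 250 bases before to 50 bases after a start site, were matched by symbol for 44 of the 52 genes. The remaining 8 were IFIT2, IFITM2, USP18, ZNFX1, PARP10, TRIM22, PML and APOL6. The ISRE was searched as GAAANNGAAA and the GAS as TTCNNNGAA, each on both strands. An ISRE match lay in at least 1 window of 31 of the 44 genes (70.5%), against 4.17% of 10378 tested genes with a window and 3.57% of all 35116 windows. The ISRE matches of PARP9 and DTX3L, genes on opposite strands, fell on the same bases and were counted for each gene. A GAS match lay in windows of 11 of the 44 genes (25.0%), against 8.79% of tested genes and 7.66% of all windows. The 200 bases before the start site are printed for 7 genes that the results below turn on, with ISRE letters in capitals (matches on the other strand read TTTC, 2 free bases, TTTC).
ISG15, chr1:1013297-1013496 (+ strand): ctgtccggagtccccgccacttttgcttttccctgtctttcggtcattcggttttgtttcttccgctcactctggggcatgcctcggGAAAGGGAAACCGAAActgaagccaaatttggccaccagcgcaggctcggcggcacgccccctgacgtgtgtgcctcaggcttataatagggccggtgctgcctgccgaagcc
IFIT1, chr10:89392423-89392622 (+ strand): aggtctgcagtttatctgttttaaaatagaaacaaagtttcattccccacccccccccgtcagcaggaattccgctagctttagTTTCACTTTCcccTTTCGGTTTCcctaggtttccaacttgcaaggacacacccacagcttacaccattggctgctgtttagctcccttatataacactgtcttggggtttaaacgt
IFI6, chr1:27672193-27672392 (- strand): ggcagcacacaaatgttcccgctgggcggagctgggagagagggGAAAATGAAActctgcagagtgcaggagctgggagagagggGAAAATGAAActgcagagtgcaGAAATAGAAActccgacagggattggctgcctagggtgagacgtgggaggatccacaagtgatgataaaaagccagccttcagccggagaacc
IFITM1, chr11:313840-314039 (+ strand): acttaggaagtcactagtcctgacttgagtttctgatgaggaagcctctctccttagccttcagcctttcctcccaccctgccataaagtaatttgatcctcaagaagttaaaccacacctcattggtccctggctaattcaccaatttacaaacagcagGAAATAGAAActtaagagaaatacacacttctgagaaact
DDX60, chr4:168318753-168318952 (- strand): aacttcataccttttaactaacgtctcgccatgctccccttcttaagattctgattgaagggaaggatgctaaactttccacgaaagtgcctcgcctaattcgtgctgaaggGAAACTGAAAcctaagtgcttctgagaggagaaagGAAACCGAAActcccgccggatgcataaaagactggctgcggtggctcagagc
LAP3, chr4:17576998-17577197 (+ strand): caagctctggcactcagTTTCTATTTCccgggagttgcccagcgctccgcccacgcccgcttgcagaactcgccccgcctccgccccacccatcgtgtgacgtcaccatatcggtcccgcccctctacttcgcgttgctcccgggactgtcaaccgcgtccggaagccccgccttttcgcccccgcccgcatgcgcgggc
PNPT1, chr2:55693845-55694044 (- strand): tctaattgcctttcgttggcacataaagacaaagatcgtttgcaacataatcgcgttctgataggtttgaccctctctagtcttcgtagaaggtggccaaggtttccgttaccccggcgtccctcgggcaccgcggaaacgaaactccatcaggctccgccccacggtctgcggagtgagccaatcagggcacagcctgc

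ISG15 held 2 matches that overlapped, IFIT1 and DDX60 held 2 separate matches each, and IFI6 held 3. IFITM1 held 1 match in the printed stretch, at -40, and a further one at -6 that ran past the start site. LAP3 held 1 match, far from its start site at -183, and PNPT1 held none. In the PNPT1 stretch 2 GAAA groups lay 1 base apart, a near match that the search did not count. No ISRE match was found for 13 genes: CMPK2, HELZ2, HERC6, IFI16, IFI35, PNPT1, SAMD9L, SP100, SP110, TDRD7, TRIM25, UBE2L6 and XAF1. The median log2 fold change of the 31 genes with a match and of the 13 without was 0.22 and 0.13 with everolimus, 1.48 and 1.11 with SGI-1027, and 1.65 and 1.51 with the combination. With SGI-1027 the 2 sets ranged from 0.077 to 3.11 and from -0.12 to 3.74, and with the combination from -0.072 to 3.73 and from -0.062 to 3.65. The ranges overlapped over most of their length, and no test was made. A match is a description of letters and not of a bound factor. Its absence says nothing about near matches or about bases beyond this window.

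Table totals ran from 37046231 to 41516976 counts per library. SGI-1027 replicate 3 stood apart from its group: the chi-square per gene was 16.4 and 16.1 against replicates 1 and 2, which differed from each other by 3.04. It also held the highest value of its group for 42 of the 52 genes. DMSO replicate 1 differed from DMSO replicates 2 and 3 by 10.2 and 13.0, and DMSO replicate 2 held the highest DMSO value for 30 of the 52 genes. The other pairs within a group differed by at most 5.48. Several results that rest on these libraries are also given without them. Markers of renal carcinoma lines summed to between 8534 and 10300 CPM (counts relative to library size, scaled by TMM factors) in the 12 libraries, although CA9 was near 0, with group means of 0.12 to 0.44 CPM. Most of this sum was VIM, with group means of 5954 to 7293 CPM. The 9 leukocyte markers summed to at most 0.87 CPM and the 5 endothelial markers to at most 0.73 CPM in any library.

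SGI-1027 raised almost the whole set, everolimus alone moved it little, and the combination took most genes above SGI-1027. The 52 genes together summed to between 2774 and 2856 CPM in DMSO, 3095 and 3163 after everolimus, 5524 and 6328 after SGI-1027, and 6771 and 6958 after both drugs. These ranges did not overlap. A gene was counted as a differentially expressed gene (DEG) at an unadjusted p below 0.05 with a log2 fold change of 1 or more in size, and as called at a Benjamini-Hochberg adjusted p below 0.05 over all tested genes in edgeR's quasi-likelihood test. Fitted changes are log2 fold changes ± standard error unless another unit is given. In bulk RNA a change in every cell and a larger change in some cells cannot be told apart.

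With everolimus, 3 genes were DEGs with a higher level (ISG20, LGALS9 and RTP4), where 3.89% of all tested genes were, and 0 were DEGs with a lower level, where 0.903% were. At the adjusted threshold 29 were higher, against a background of 27.2%, and 3 were lower (LAP3, PNPT1 and USP18), against 29.2%. With SGI-1027, 35 of the 52 were DEGs with a higher level (background 6.25%) and 0 with a lower level (1.07%). By adjusted p, 50 were higher with SGI-1027 (32.0%) and 1 was lower (30.6%). With the combination, 39 were DEGs with a higher level (7.25%) and 0 with a lower level (2.71%). By adjusted p, 50 were higher with the combination (32.8%) and 0 were lower (33.4%), also at an unadjusted p below 0.05 and in DESeq2. At an unadjusted p below 0.05, 4 genes were lower with everolimus and 1 with SGI-1027, all by less than the DEG fold. The everolimus count of 3 DEGs was 1 without everolimus replicate 3 and 4 without DMSO replicate 2. Without DMSO replicate 1, the 29 genes higher by adjusted p became 23. The calls then lost were those of IFIT5, RSAD2, DTX3L, IFI35, RTP4 and TDRD7 (adjusted p from 0.0651 to 0.190).

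The median log2 fold change of the 52 genes was 0.22 in the everolimus comparison, 1.36 in that of SGI-1027 and 1.59 in that of both drugs, while the medians of all tested genes were within 0.02 of 0. By DEGs, 32 genes were higher with SGI-1027 and with the combination but not with everolimus (background 2.25%), and 3 were DEGs in all 3 comparisons (background 2.69%).

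**Figure D1:**
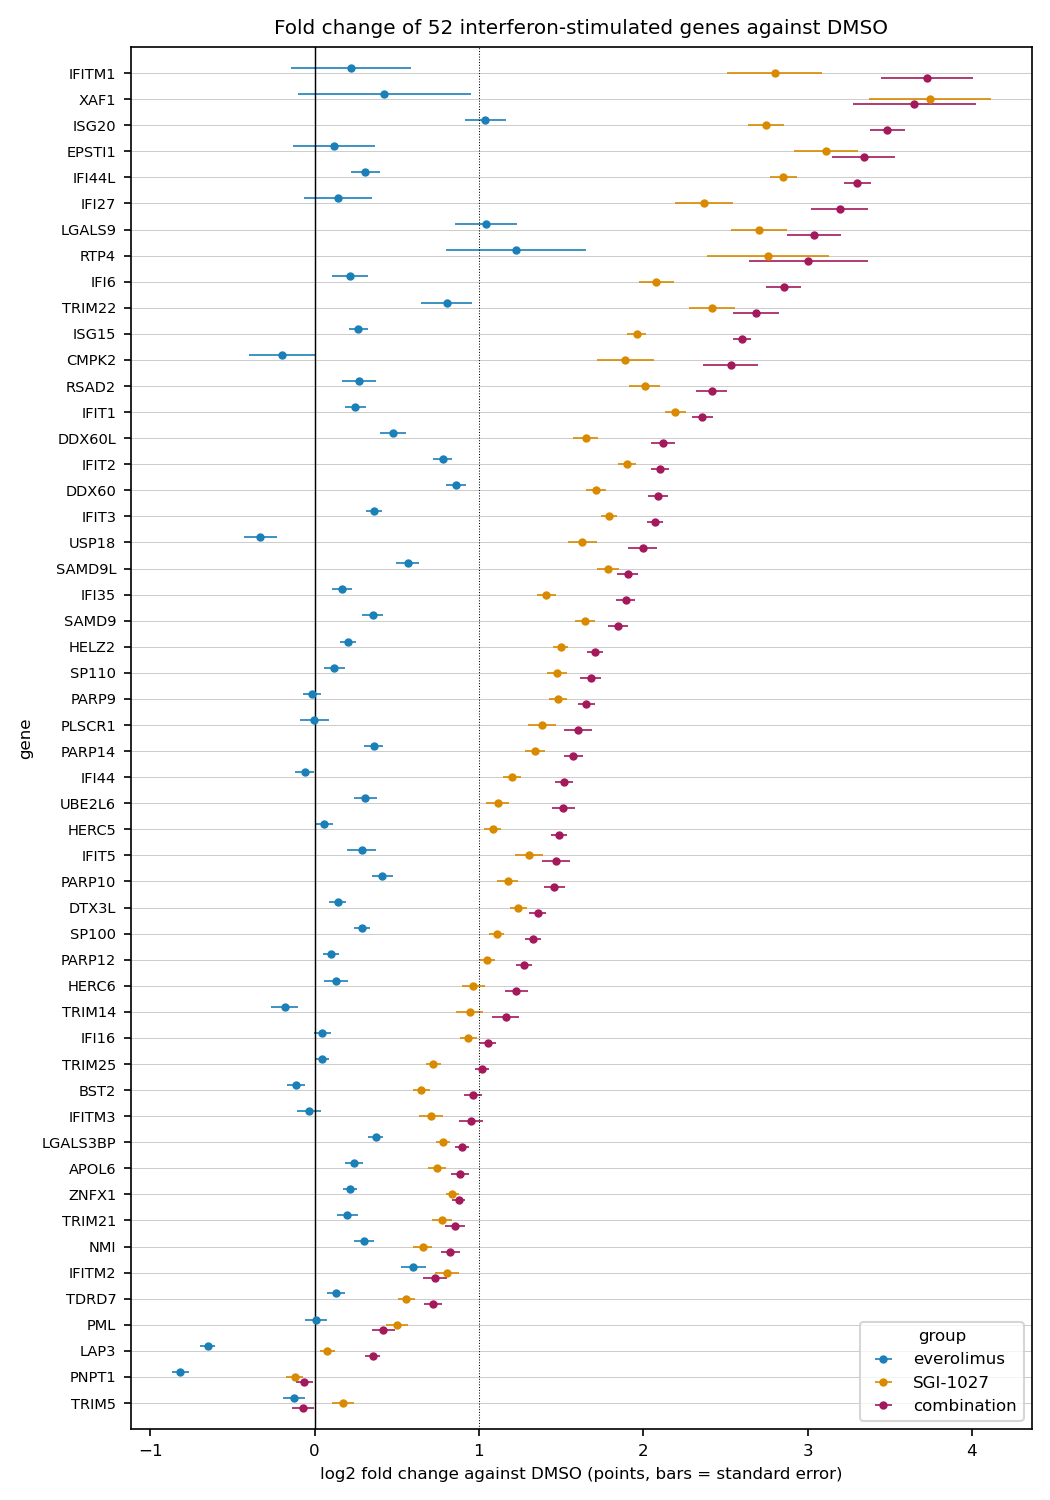
Log2 fold change against DMSO (horizontal axis, points with bars of 1 standard error) of the 52 genes, ordered by their change with the combination; the dotted line marks a log2 fold change of 1. Everolimus points lie near 0 for most genes, SGI-1027 points lie to their right for all 52, and LAP3, PNPT1 and TRIM5 sit at the bottom.

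**Figure D2:**
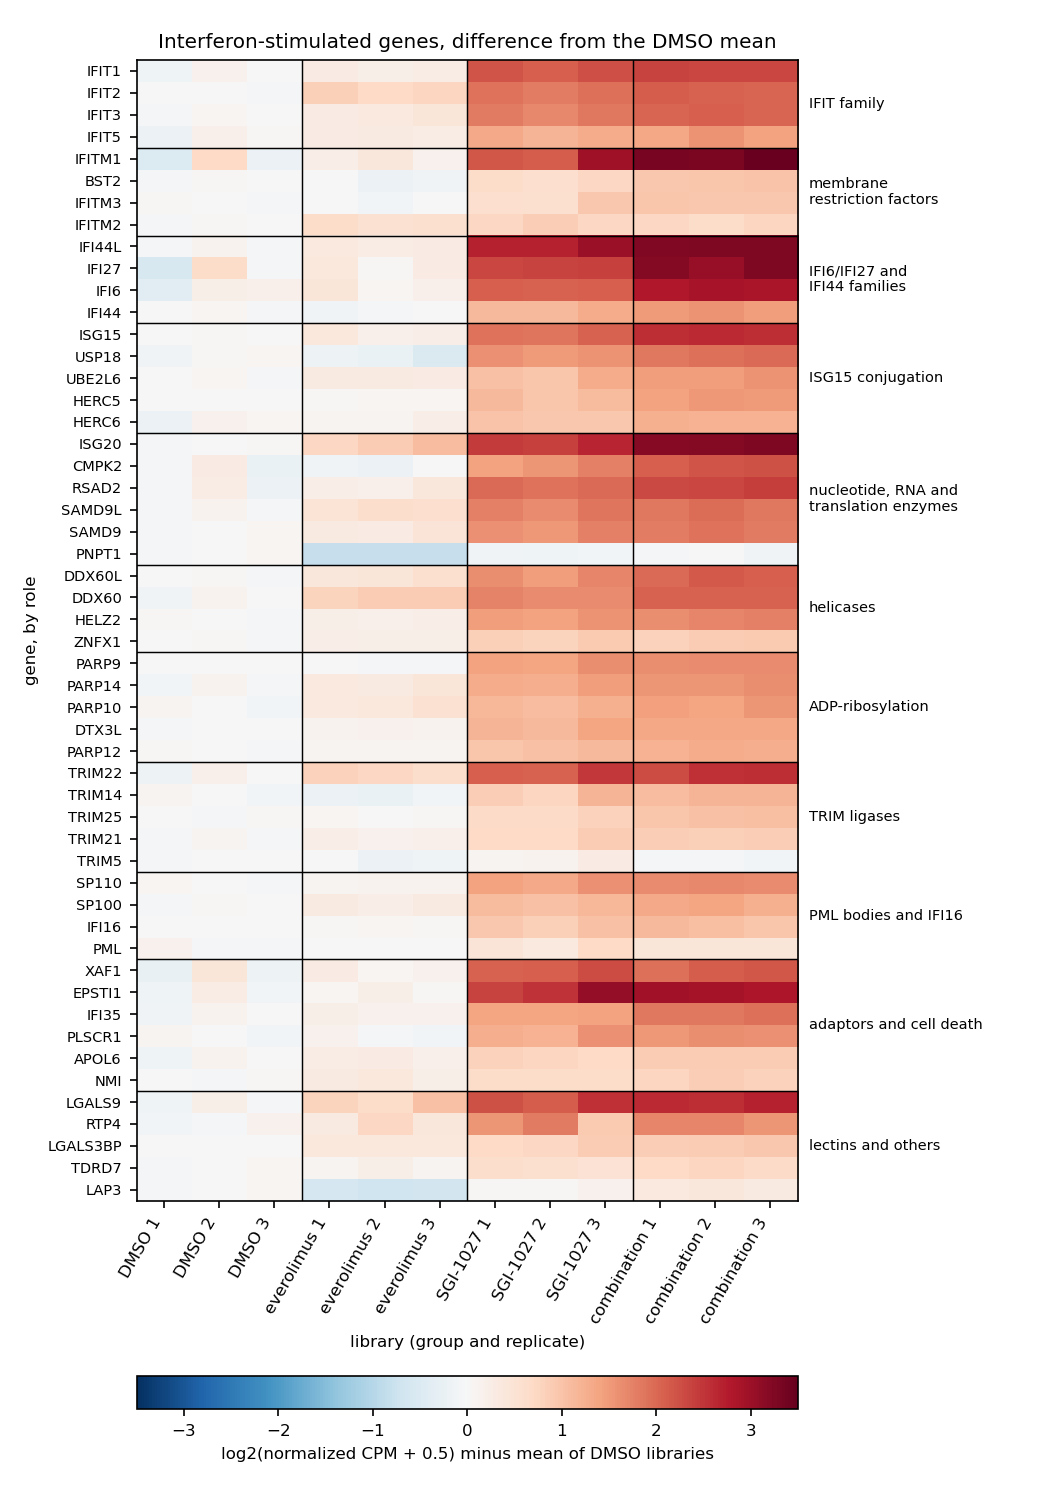
Log2(normalized CPM + 0.5) of each gene in each of the 12 libraries minus its mean over the DMSO libraries, with genes grouped by role and colours from -3.5 (blue) to 3.5 (red). The SGI-1027 and combination columns are red in nearly every row, and the everolimus columns are blue for PNPT1 and LAP3.

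The IFIT family encodes proteins that bind foreign RNA and block its translation. All 4 members were DEGs with SGI-1027 and with the combination, and all 4 were called higher with everolimus at smaller folds. Without DMSO replicate 1 the everolimus call of IFIT5 was lost (0.18, adjusted p = 0.0651). IFIT1, which recognises RNA caps lacking ribose methylation, stood at 32.8, 40.6 and 36 CPM in the DMSO libraries, 44.1, 42.2 and 43.7 after everolimus, 168, 157 and 177 after SGI-1027 and 189, 186 and 187 after both drugs. No 2 groups overlapped, although the SGI-1027 and combination libraries were close. The change against DMSO was 0.25 ± 0.063 after everolimus (adjusted p = 0.00258), 2.20 ± 0.061 after SGI-1027 (adjusted p = 6.54e-15) and 2.36 ± 0.062 after both drugs (adjusted p = 1.17e-15). Its adjusted p for the combination against SGI-1027 was 0.0485, at the edge of the threshold. IFIT2 stood at 18.5, 18.7 and 18.1 CPM in DMSO, 33.2, 30.4 and 31.5 after everolimus, 70, 64.5 and 72.2 after SGI-1027 and 82.2, 78.2 and 77.3 after both drugs. It had the largest everolimus response of the family, 0.78 ± 0.057, and its groups did not overlap. IFIT5 had the smallest combination response, at 11.6, 15.4 and 14 CPM in DMSO, 16.7, 16.9 and 16.4 after everolimus, 35.1, 31.8 and 34.4 after SGI-1027 and 35.1, 41.3 and 37.1 after both drugs. The groups given SGI-1027 lay above the other libraries, and SGI-1027 replicate 1 and combination replicate 1 were nearly equal. IFIT3 rose by 0.36, 1.79 and 2.07 in the same order of treatments.

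Membrane restriction factors act at virus entry (IFITM1, IFITM2, IFITM3) or tether budding particles to the cell (BST2). All 4 were called higher with SGI-1027 and with the combination, but only IFITM1 passed the DEG fold. IFITM1 stood at 0.590, 1.97 and 0.838 CPM in DMSO, 1.30, 1.51 and 1.20 after everolimus, 6.43, 6.12 and 11.5 after SGI-1027 and 14.9, 14.5 and 16.3 after both drugs. DMSO replicate 2 lay above the everolimus libraries, SGI-1027 replicate 3 lay far above replicates 1 and 2, and the combination libraries lay above all others. IFITM1 had the largest fitted change of the set with the combination, 3.73 ± 0.28 (adjusted p = 1.62e-09), and 2.80 ± 0.29 with SGI-1027 (adjusted p = 1.59e-07). Without DMSO replicate 2 the changes were 4.41 and 3.49, and everolimus alone went from 0.22, not called, to 0.90 (adjusted p = 0.0485). IFITM2 showed another order, with 8.80, 9.25 and 8.90 CPM in DMSO, 14.3, 13.1 and 13.5 after everolimus, 15.2, 16.8 and 15.1 after SGI-1027 and 15.1, 14.2 and 15.5 after both drugs. Here the 3 treated groups lay close together, and the combination overlapped each drug alone. The changes against DMSO were 0.60 ± 0.074, 0.81 ± 0.074 and 0.73 ± 0.074. The combination differed from everolimus by 0.13 (95% interval -0.0070 to 0.27, adjusted p = 0.154). IFITM3 and BST2 were abundant: per length, the mean DMSO level was 375 FPKM for IFITM3 and 75.8 FPKM for BST2, and IFITM3 reached 734 FPKM with the combination. IFITM3 rose by 0.71 with SGI-1027 and 0.95 with the combination, and BST2 by 0.65 and 0.97. Coding sequences of the 3 IFITM genes are close copies, so reads may have been split between them.

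The small hydrophobic proteins IFI6 and IFI27, and IFI44 with its own relative IFI44L, were all DEGs after SGI-1027 and after both drugs. Each of the 4 was higher with the combination than with SGI-1027. IFI44L stood at 13.6, 15.1 and 13.2 CPM in DMSO, 17.9, 16.8 and 17.3 after everolimus, 93.1, 92.2 and 118 after SGI-1027 and 137, 138 and 138 after both drugs. The groups did not overlap, and the combination libraries were nearly equal to each other. IFI44L rose by 2.85 ± 0.083 with SGI-1027 (adjusted p = 8.82e-15), by 3.30 ± 0.083 with the combination (adjusted p = 6.85e-16) and by 0.31 ± 0.089 with everolimus (adjusted p = 0.00675). IFI44 stood at 33.2, 34.9 and 32.2 CPM in DMSO, 30.9, 32 and 33.3 after everolimus, 74.1, 74.1 and 82.9 after SGI-1027 and 94, 100.2 and 93.5 after both drugs. Everolimus alone overlapped DMSO for IFI44, while the combination lay above every SGI-1027 library. IFI6, whose promoter held 3 ISRE matches, went from a mean of 25.9 ± 5.4 CPM (SD, n = 3) in DMSO to 109.7 ± 2.1 with SGI-1027 and 188 ± 4.7 with the combination. IFI27 went from 5.30 ± 2.5 to 27.7 ± 0.64 and 49 ± 3.5 CPM. Neither was called with everolimus alone (0.21 and 0.14). Without DMSO replicate 2 both were called, IFI6 at 0.32 (adjusted p = 0.0327) and IFI27 at 0.59 (adjusted p = 0.00263). IFI6 was also called with upper-quartile scaling (0.29, adjusted p = 0.0311) and without everolimus replicate 2 (0.30, adjusted p = 0.0467).

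Conjugation of ISG15 to proteins uses UBE2L6 as the conjugating enzyme and HERC5 as the ligase, and USP18 removes it and also dampens signalling at the interferon receptor. All 5 genes of this group were DEGs with the combination, 4 with SGI-1027, and all 5 were higher with the combination than with SGI-1027. ISG15 stood at 48.7, 51 and 48.9 CPM in DMSO, 64.4, 55.7 and 58.8 after everolimus, 186, 183 and 209.97 after SGI-1027 and 299, 303 and 300.04 after both drugs. Groups were well separated, and the combination was the tightest of the treated groups. ISG15 rose by 0.27 ± 0.057 after everolimus (adjusted p = 0.000649), 1.96 ± 0.056 after SGI-1027 (adjusted p = 8.35e-15) and 2.60 ± 0.057 after both drugs (adjusted p = 2.02e-16). Per length it was among the most abundant of the set, at a mean of 77.4 FPKM in DMSO and 477 FPKM with the combination. HERC6, a relative of HERC5, stood at 23.3, 30.2 and 28.5 CPM in DMSO, 29.3, 28.9 and 31.8 after everolimus, 55.1, 52.4 and 53 after SGI-1027 and 65, 63.6 and 63.7 after both drugs. Everolimus overlapped DMSO, and the combination lay above every SGI-1027 library. Its change with SGI-1027, 0.97, fell just short of the DEG fold, which it passed with the combination at 1.23. UBE2L6 rose by 1.11 and 1.51, and HERC5 by 1.08 and 1.49, with SGI-1027 and the combination. USP18 fell by 0.33 on the log2 scale with everolimus (adjusted p = 0.010) and rose by 1.63 with SGI-1027 and 1.996 with the combination. It was the only one of the 52 genes called lower with everolimus and higher with SGI-1027, and the everolimus call was lost without everolimus replicate 3. A near-identical copy of USP18 exists in the genome, so its counts are uncertain in that respect.

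Enzymes that act on nucleotides, RNA and translation split into 5 genes that rose and PNPT1. ISG20, an exonuclease that degrades single-stranded RNA, stood at 2.15, 2.21 and 2.33 CPM in DMSO, 4.0, 4.52 and 5.23 after everolimus, 14.3, 13.9 and 16.8 after SGI-1027 and 24.2, 25 and 25.8 after both drugs. The 4 groups formed 4 separate steps. ISG20 rose by 1.04 ± 0.12 after everolimus (adjusted p = 1.33e-06), 2.75 ± 0.11 after SGI-1027 (adjusted p = 7.16e-13) and 3.49 ± 0.11 after both drugs (adjusted p = 9.38e-15). CMPK2, a mitochondrial nucleotide kinase, stood at 1.21, 1.63 and 0.995 CPM in DMSO, 1.11, 1.03 and 1.23 after everolimus, 4.19, 4.61 and 5.49 after SGI-1027 and 6.96, 7.57 and 7.75 after both drugs. Everolimus fell inside the DMSO range, and the combination lay above SGI-1027. RSAD2 (viperin), which makes a chain-terminating nucleotide, rose by 2.01 and 2.42. CMPK2 and RSAD2 overlap on opposite strands in RefSeq, as do PARP9 and DTX3L, and the strand setting of the counting is not given in the sources used here. The translation inhibitors SAMD9 and SAMD9L rose by 1.65 and 1.79 with SGI-1027 and by 1.85 and 1.90 with the combination.

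PNPT1, a mitochondrial RNA-degrading enzyme, went the other way with everolimus. It stood at 37.7, 38.9 and 40.8 CPM in DMSO, 22.3, 22.1 and 22.2 after everolimus, 36.2, 35.4 and 36.4 after SGI-1027 and 37.5, 39 and 36 after both drugs. The everolimus libraries lay far below all others, which were close together. PNPT1 changed by -0.82 ± 0.052 with everolimus (adjusted p = 5.00e-10). With SGI-1027 it was -0.12 ± 0.051 (adjusted p = 0.0451), a call that most alternative settings lost, and with the combination -0.062 ± 0.051 (adjusted p = 0.289).

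**Figure D3:**
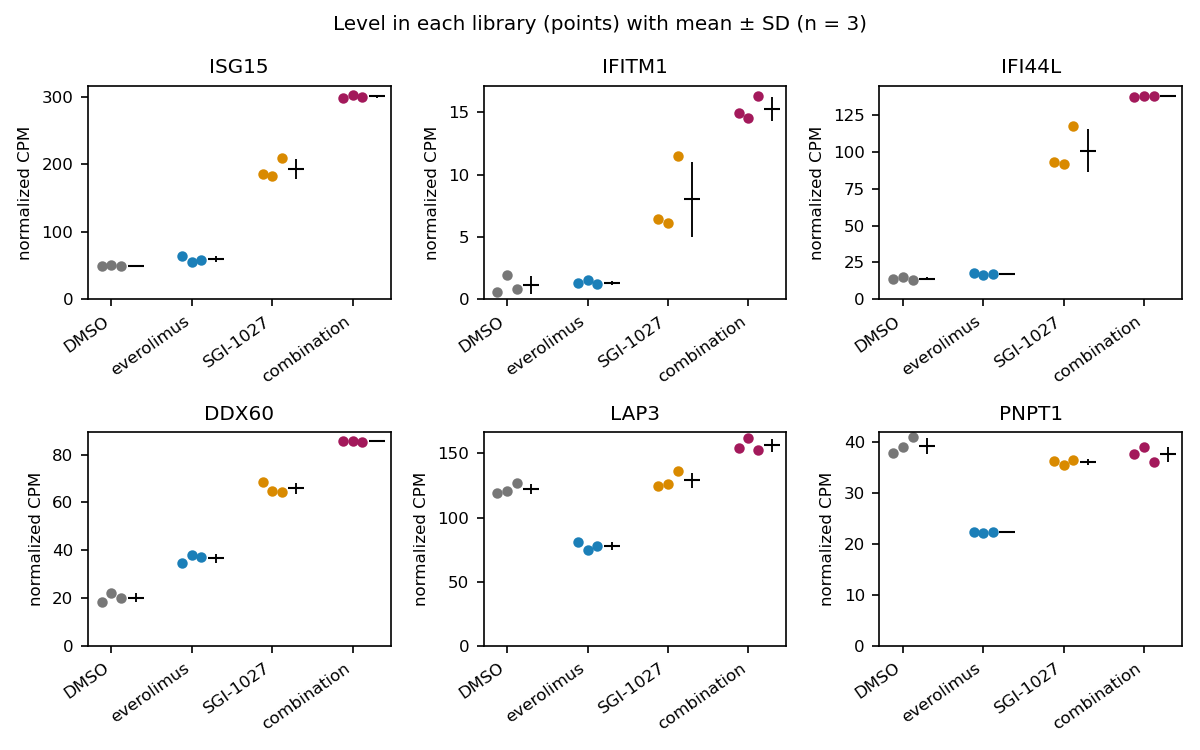
Normalized CPM (vertical axes, starting at 0) of 6 genes in each library (points), with the group mean and SD (bars, n = 3). ISG15, IFITM1, IFI44L and DDX60 are highest in the combination, and LAP3 and PNPT1 are lowest with everolimus alone.

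Helicases of the antiviral response were called higher after each drug and after both drugs in 4 of 4 cases. DDX60L stood at 11.3, 12 and 11.3 CPM in DMSO, 15.4, 15.7 and 17.1 after everolimus, 36.9, 32.8 and 38.9 after SGI-1027 and 46.9, 52.6 and 51.2 after both drugs. Its groups did not overlap, and the change was 0.48, 1.65 and 2.12. Its relative DDX60, a cofactor of RNA sensing, had a larger everolimus response, from 20.1 ± 1.9 CPM (SD, n = 3) in DMSO to 36.6 ± 1.8 after everolimus, 65.8 ± 2.3 after SGI-1027 and 85.7 ± 0.21 after both drugs. ZNFX1 had the smallest change of the 4 after SGI-1027 and after both drugs, at 182, 187 and 178 CPM in DMSO, 216, 209 and 211 after everolimus, 325, 311 and 344 after SGI-1027 and 322, 339 and 344 after both drugs. SGI-1027 and the combination overlapped for ZNFX1, and they differed by 0.037 (95% interval -0.044 to 0.12). HELZ2 had the smallest change of the 4 with everolimus, 0.20 against 0.22 for ZNFX1. It rose by 1.50 with SGI-1027 and 1.71 with the combination.

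Genes of ADP-ribosylation were DEGs after SGI-1027 and after both drugs in 5 of 5 cases. PARP9, which works with the ubiquitin ligase DTX3L, stood at 42.4, 42.5 and 42.9 CPM in DMSO, 43.3, 41.6 and 41.7 after everolimus, 114, 112 and 131 after SGI-1027 and 132, 136 and 135 after both drugs. DMSO and everolimus overlapped (difference -0.015, 95% interval -0.12 to 0.093), and SGI-1027 replicate 3 lay just under the lowest combination library. PARP12 stood at 49.4, 47 and 46.4 CPM in DMSO, 51, 50.4 and 51.2 after everolimus, 93.3, 97.7 and 105 after SGI-1027 and 112, 118 and 115 after both drugs. Its groups did not overlap, and it had the smallest rise of these 5 genes, 1.05 with SGI-1027 and 1.27 with the combination. PARP10, PARP14 and DTX3L rose with everolimus by 0.41, 0.36 and 0.14, and with the combination by 1.46, 1.57 and 1.36.

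Genes of the TRIM family differed widely among themselves. TRIM22, which restricts several viruses, stood at 2.15, 2.87 and 2.51 CPM in DMSO, 4.70, 4.45 and 4.05 after everolimus, 12.3, 11.9 and 16.1 after SGI-1027 and 14.1, 17.2 and 17.4 after both drugs. The everolimus libraries lay above DMSO, and SGI-1027 replicate 3 lay inside the range of the combination. TRIM22 rose by 0.80 ± 0.16 after everolimus, 2.42 ± 0.14 after SGI-1027 and 2.69 ± 0.14 after both drugs. TRIM5, which binds retroviral capsids, stood at 20.6, 21.3 and 21.3 CPM in DMSO, 20.7, 18.3 and 18.9 after everolimus, 22.6, 22.9 and 25.7 after SGI-1027 and 20, 20.3 and 19.8 after both drugs. Everolimus and DMSO overlapped, SGI-1027 lay slightly above both, and TRIM5 was the only gene called lower with the combination than with SGI-1027 (-0.24, adjusted p = 0.0133). Without SGI-1027 replicate 3 that difference was -0.18 (adjusted p = 0.0734). TRIM14, an adaptor at mitochondria, rose by 0.95 and 1.16, TRIM25, which activates the RNA sensor RIG-I, by 0.72 and 1.02, and the antibody receptor TRIM21 by 0.78 and 0.86, with SGI-1027 and the combination.

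Nuclear body proteins and the DNA sensor IFI16 were called higher after SGI-1027 and after both drugs in 4 of 4 cases. SP110 stood at 26.5, 25.7 and 24.2 CPM in DMSO, 27.3, 27.7 and 28 after everolimus, 68.7, 65.1 and 78.8 after SGI-1027 and 81, 82.2 and 81.4 after both drugs. Everolimus lay just above DMSO (change 0.12, not called), and the combination lay above every SGI-1027 library. PML, the scaffold of these bodies, stood at 227, 197 and 195 CPM in DMSO, 207, 208 and 207 after everolimus, 279.5, 263 and 333 after SGI-1027 and 274, 277 and 276 after both drugs. It rose by 0.50 ± 0.068 with SGI-1027, where replicate 3 was the highest library, and by 0.42 ± 0.068 with the combination. SP100 rose by 1.11 and 1.33 and IFI16 by 0.94 and 1.05.

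Among adaptors and genes of cell death, XAF1, an antagonist of the caspase inhibitor XIAP, was nearly silent in DMSO. It had 2, 16 and 3 counts in the DMSO libraries, 11, 8 and 9 after everolimus, 90, 86 and 106 after SGI-1027 and 77, 95 and 94 after both drugs. In CPM these were 0.0537, 0.389 and 0.0785, then 0.297, 0.195 and 0.235, then 2.27, 2.33 and 2.72, then 2.01, 2.38 and 2.47. DMSO replicate 2 held most of the DMSO counts, everolimus overlapped DMSO, and the SGI-1027 groups overlapped each other. XAF1 rose by 3.74 ± 0.37 with SGI-1027 (adjusted p = 9.34e-08) and 3.65 ± 0.37 with the combination (adjusted p = 1.04e-07). Without DMSO replicate 2 these were 5.14 and 5.05, and everolimus went from 0.42, not called, to 1.81 (adjusted p = 0.0101). NMI, a partner of IFI35, stood at 19.3, 18.9 and 20.2 CPM in DMSO, 24.4, 25.1 and 22.5 after everolimus, 30.9, 30.5 and 30.8 after SGI-1027 and 33.3, 36.1 and 34.2 after both drugs. Its 4 groups were separate, in small steps. IFI35 rose by 1.41 and 1.89, EPSTI1 by 3.11 and 3.34, the scramblase PLSCR1 by 1.38 and 1.60, and the apolipoprotein-like APOL6 by 0.74 and 0.88, with SGI-1027 and the combination.

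The last group held lectins and genes of other roles. LGALS9, a galectin, stood at 1.05, 1.48 and 1.13 CPM in DMSO, 2.46, 2.15 and 2.98 after everolimus, 7.49, 6.88 and 9.59 after SGI-1027 and 9.98, 9.76 and 10.5 after both drugs. Its groups did not overlap, and it rose by 1.04 ± 0.19 after everolimus (adjusted p = 0.00013), 2.70 ± 0.17 after SGI-1027 and 3.04 ± 0.17 after both drugs. Close copies of LGALS9 exist, so its counts are uncertain in that respect. LAP3, a leucine aminopeptidase, stood at 119, 120.5 and 127 CPM in DMSO, 80.9, 74.8 and 77.8 after everolimus, 125, 126 and 136 after SGI-1027 and 154, 162 and 153 after both drugs. The everolimus libraries lay below all others and the combination libraries above all others. LAP3 changed by -0.65 ± 0.046 after everolimus (adjusted p = 1.73e-09), 0.077 ± 0.045 after SGI-1027 (adjusted p = 0.148) and 0.35 ± 0.045 after both drugs (adjusted p = 1.59e-06). RTP4, a receptor chaperone, was a DEG in all 3 comparisons (1.23, 2.76 and 3.01), but at group means of 0.21 to 1.74 CPM. LGALS3BP, a secreted glycoprotein, went from 201 to 379.6 FPKM between DMSO and the combination, and TDRD7 rose by 0.72.

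SGI-1027 was above everolimus for 52 of the 52 genes (background 13.0%) and below it for 0 (9.51%), also at an unadjusted p below 0.05. The call for IFITM2 was lost in DESeq2 (0.19, adjusted p = 0.0679), with upper-quartile scaling (0.18, adjusted p = 0.072) and with a replicate block (0.20, adjusted p = 0.0704). Over the alternatives the count above everolimus ran from 50 to 52. The combination was above everolimus for 50 (20.1%) and below it for 0 (19.2%), the 2 genes not called being IFITM2 and TRIM5. Against SGI-1027 the combination was higher for 33 (9.40%) and lower for 1 (10.2%). The 33 were above each drug alone, where 7.90% of tested genes were. They held all 5 genes of ISG15 conjugation, all 4 of the IFI6/IFI27 and IFI44 group, 4 of 5 of ADP-ribosylation, and 1 of 5 TRIM genes. The largest additions on top of SGI-1027 were those of IFITM1 (0.93 ± 0.22, adjusted p = 0.00534), IFI27 (0.82 ± 0.15, adjusted p = 0.000562), IFI6 (0.77 ± 0.096, adjusted p = 1.13e-05), ISG20 (0.74 ± 0.085, adjusted p = 5.17e-06), CMPK2 and ISG15 (both 0.64, adjusted p = 0.00404 and 8.28e-08). In DESeq2 the addition for IFITM1 was 0.94 and not called (adjusted p = 0.0731). Without SGI-1027 replicate 3 the count was 40 higher and 0 lower, and without SGI-1027 replicate 2 it was 26 higher. Of the 30 genes higher with the combination than with each drug and with a promoter window, 21 held an ISRE match (70.0%), and of the other 14 genes 10 did (71.4%).

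Whether everolimus acted differently in the presence of SGI-1027 was tested as the interaction, the everolimus effect on top of SGI-1027 minus the everolimus effect alone. The interaction was above 0 for 14 genes, where 23.6% of tested genes were, and below 0 for 8, where 22.1% were. In both directions together, 22 of the 52 passed the threshold, where 45.6% of tested genes did, so the count is near the share of all genes. With upper-quartile scaling 12 genes were above and 12 below 0. Its median over the 52 genes was 0.02. The 14 were LAP3, PNPT1, CMPK2, USP18, IFI27, IFI6, BST2, TRIM14, IFI44, ISG15, HERC5, IFI35, IFITM3 and TRIM25. LAP3 and PNPT1 were lower with everolimus alone and not with the combination, and ISG15 and IFI6 gained more from everolimus on top of SGI-1027 (0.64 and 0.77) than alone (0.27 and 0.21). The 8 were LGALS9, IFITM2, IFIT2, TRIM22, DDX60, SAMD9L, LGALS3BP and ZNFX1. Each of these 8 was called higher with everolimus alone, and IFIT2, for instance, gained 0.78 alone and 0.20 on top of SGI-1027. Because the interaction subtracts the effect alone, a high effect alone by itself lowers it, so these are not independent findings. The call for IFI27 was lost under 13 of 20 alternatives and that for IFITM3 under 9. Without DMSO replicate 2 the interaction was 0.24 for IFI27 (adjusted p = 0.274) and 0.62 for CMPK2 (adjusted p = 0.0593), and 11 genes were above 0, while 20 were without SGI-1027 replicate 3. If everolimus alone was given at 10 µM, as only the shared protocol text has it, these differences also compare 2 doses.

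**Figure D4:**
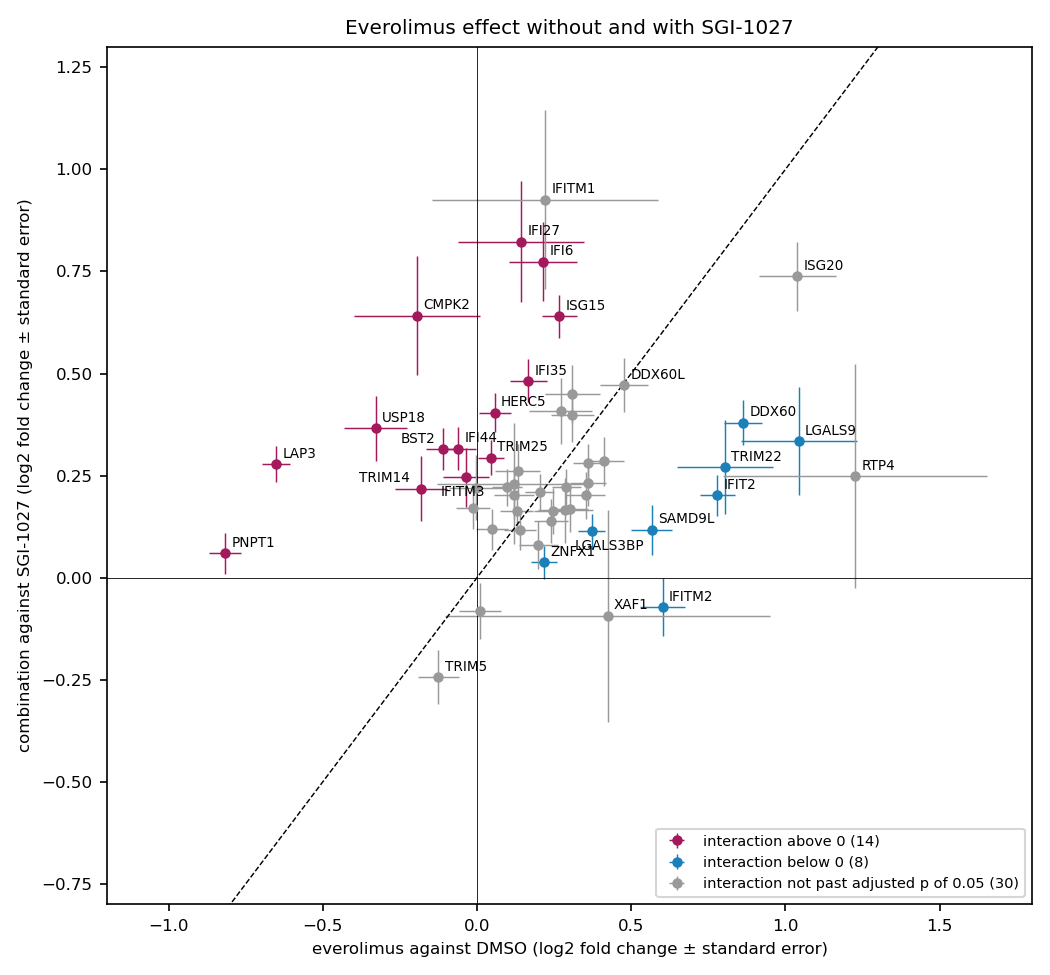
Everolimus effect without SGI-1027 (horizontal axis) and on top of SGI-1027 (vertical axis), as log2 fold changes with bars of 1 standard error; the dashed line marks equal effects. The 14 genes with an interaction above 0 lie above the line, with LAP3 and PNPT1 farthest left, and the 8 with an interaction below 0 lie under it.

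The other genes of the pathway were described by lists. Of the 6 MX and OAS genes (MX1, MX2, OAS1, OAS2, OAS3 and OASL), 0 were DEGs after everolimus, 5 after SGI-1027 and 6 after both drugs, all of them higher. The median log2 fold change was 0.34, 1.99 and 2.45 in that order. MX2 rose by 3.90 ± 0.14 with SGI-1027 and 4.49 ± 0.14 with the combination. Of 18 receptor, JAK-STAT and IRF genes, 0, 3 and 3 were DEGs, namely STAT2, IRF9 and IRF7, all higher. By adjusted p, 9 of the 18 were higher and 4 lower after everolimus, 9 and 3 after SGI-1027, and 8 and 3 after both drugs. STAT2 went from 35.5 ± 1.5 CPM (SD, n = 3) in DMSO to 66.2 ± 1.3 after everolimus, 147 ± 12 after SGI-1027 and 179.9 ± 3.3 after both drugs. IRF9 rose by 1.26 ± 0.069 and IRF7 by 2.16 ± 0.20 with SGI-1027.

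Of 21 interferon genes listed, 8 were in the table, and IFNA5, IFNK, IFNL2 and IFNL3 of these were at 0 counts in all 12 libraries. IFNB1 had at most 4 counts in any library, IFNA1 and IFNL1 at most 1. Only IFNE had enough reads to be tested and is named here after its values were seen. It went from 0.386 ± 0.17 CPM in DMSO to 1.08 ± 0.26 after everolimus, 0.643 ± 0.30 after SGI-1027 and 0.552 ± 0.18 after both drugs, and was called with everolimus (adjusted p = 0.00337) but not with SGI-1027 (adjusted p = 0.128) or the combination (adjusted p = 0.299). The other 7 measured interferon genes were thus at or near 0 at this depth and time, where 3 counts of 37046231 would be 0.081 CPM. The remaining 13 listed genes were not analysed here.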

How the data were processed

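RNA of 786-O cells was sequenced in 12 libraries, 3 for each of 4 treatment groups. The sources differ on library preparation: the labels name a SMARTer kit after column extraction, and the study's methods name a stranded TruSeq kit after TRIzol. Raw gene counts and FPKM were deposited by the authors, the latter being counts scaled by gene length and by the table total of the library. Each of 16734 genes with a count implied 1 length in all libraries, within 0.1%. The aligner, counter and annotation are not given in the sources used here. The submitters' processing notes name the mouse builds GRCm38 and mm10, while cells and gene symbols are human, so no coordinates are drawn from the files.

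Counts were analysed with edgeR 4.0.16 in R 4.3.3 (TMM factors 0.99 to 1.01, filterByExpr, glmQLFit and glmQLFTest, prior count 0.125) in 1 fit over the 4 groups, without a replicate block. P-values were adjusted by Benjamini-Hochberg over 12841 tested genes, and 4244 were not tested. DEGs followed the cut-off of the study, without adjustment. FPKM served for levels compared between genes. Alternatives were DESeq2 1.42.0, limma 3.58.1 on log2(FPKM + 1) and log2(FPKM + 0.1), upper-quartile scaling, other filters, a replicate block, only the 2 groups compared, and leaving out libraries. Scripts were tested on simulated data. The genes, the 11 role groups and the other lists were chosen with earlier results of these data known. Values in every library are given for the genes with the highest and lowest combination response of each role group and for the 3 highest and 3 lowest interactions. The values of 1 listed pathway gene are not reported here.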

Additional observations from a re-analysis of the deposited data

Results flagged for a closer look

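For 22 of the 52 genes the everolimus effect differed between cells with and without SGI-1027, by the interaction test of edgeR (adjusted p below 0.05 over all tested genes). Of all tested genes 45.6% passed this test, so the share among the 52 was not above that background. Values are differences of log2 fold changes. Above 0 were LAP3 at 0.93, PNPT1 at 0.88, CMPK2 at 0.84, USP18 at 0.69, IFI27 at 0.68, IFI6 at 0.56 and BST2 at 0.43. TRIM14 stood at 0.40, IFI44 at 0.38, ISG15 at 0.37, HERC5 at 0.35, IFI35 at 0.32, IFITM3 at 0.28 and TRIM25 at 0.25. Below 0 were ZNFX1 at -0.18, LGALS3BP at -0.26, SAMD9L at -0.45, DDX60 at -0.48, TRIM22 at -0.53, IFIT2 at -0.58, IFITM2 at -0.67 and LGALS9 at -0.71.

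Of the 22 genes, 6 lost the call under at least 1 of 20 alternatives, and LAP3 (adjusted p = 3.84e-09) and PNPT1 (adjusted p = 3.72e-08) were among those that did not. CMPK2 was not past it without DMSO replicate 2 (0.62, adjusted p = 0.0593). IFI27 went to 0.24 without that library (adjusted p = 0.274) and lost the call under 13 of the 20. These included DESeq2 (0.67, adjusted p = 0.166), upper-quartile scaling (0.61, adjusted p = 0.0586), the replicate block (0.67, adjusted p = 0.0547), both limma fits on FPKM (0.60 and 0.58, adjusted p = 0.11 and 0.159) and 7 of the 12 fits without 1 library. LGALS9 went to -0.10 with limma on log2(FPKM + 1) (adjusted p = 0.481) and was not past the threshold without DMSO replicate 1 or without everolimus replicate 3, and IFITM3, TRIM22 and ZNFX1 each lost the call in at least 2 of the fits that left out a library. IFITM1, not past the threshold at 0.71 (adjusted p = 0.192), went to 1.06 without SGI-1027 replicate 3 (adjusted p = 0.0106) and to 0.026 without DMSO replicate 2 (adjusted p = 0.969). XAF1, at -0.52 (adjusted p = 0.5), went to -1.90 without DMSO replicate 2 (adjusted p = 0.0138). If everolimus alone was given at 10 µM and not at 5 µM, the dose cannot be told apart from these differences.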

How the results depend on the processing

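Of 7577 values of the 52 genes under alternatives, 7339 stayed on their side of the threshold. Another 152 were no longer past it and 86 became past it. With a call in either fit, 0 values changed sign, and sign changes of values without a call were not counted. The 3 DEGs with everolimus became 0 with limma on log2(FPKM + 1) and on log2(FPKM + 0.1), a scale that shrinks the folds of low genes, and ranged from 1 to 4 when libraries were left out. The 3 genes lower with everolimus by adjusted p ranged from 2 to 5, with 2 without everolimus replicate 3 and 5 without everolimus replicate 1 or without SGI-1027 replicate 3. The 1 gene lower with SGI-1027, PNPT1, became 0 with upper-quartile scaling, with at least 10 counts in every library, with only the 2 groups compared and in most fits that left out a library (0 to 1). The 1 gene lower with the combination than with SGI-1027, TRIM5, became 0 without SGI-1027 replicate 3 (0 to 1). The cause was not tested. Leaving out libraries, the 33 genes higher with the combination than with SGI-1027 ranged from 26 (without SGI-1027 replicate 2) to 40 (without SGI-1027 replicate 3), the 29 higher with everolimus from 23 to 33, and the interactions from 11 to 20 above and 6 to 10 below 0. Upper-quartile scaling gave 12 interactions above and 12 below 0, against 14 and 8. When libraries were left out, the DEGs stayed at 35 to 36 with SGI-1027 and 38 to 39 with the combination. Under the other alternatives they ranged from 30 to 36 with SGI-1027 and from 37 to 41 with the combination. Leaving out DMSO replicate 2 and SGI-1027 replicate 3 together, chosen after seeing the data, gave 4, 35 and 38 DEGs. Upper-quartile scaling moved the median of all tested genes by at most 0.08.

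Replicate numbers did not pair the libraries: the correlation of same-numbered deviations ran from -0.176 to 0.036 over 18 pairs of libraries, 0 above 0.1, and 6 of 18 correlated best with their own number. With the replicate block, the 1 gene lower with SGI-1027 became 0, and the other counts stayed within 1.5 times.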
